A study of Mus musculus with 2 samples.

Results

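Lung capillaries carry the machinery that takes fatty acids out of the blood, and 8 genes of that machinery were followed here across the endothelial classes of the mouse lung: Gpihbp1, Lpl, Cd36, Fabp4, Scarb1, Lipg, Pparg and Angptl4. The genes were chosen by name for their roles in lipid uptake and lipolysis, and all 8 were found by symbol among the 31053 genes of the count matrices. Lung cells of male C57BL/6 wild-type mice had been sorted for the endothelial surface protein PECAM1, with no gate against leukocytes, 6 h after an injection into the tail vein. Over all experiments of the study the mice were 8 to 12 weeks old. The control library came from mice given phosphate-buffered saline (PBS), and the metastatic library from mice given 200000 cells each of B16-F10, a mouse melanoma line. Each library pooled the cells of 2 mice and each group held 1 library, so no difference between the groups had a replicate check and no test was made of it.

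In the textbook account, lipoprotein lipase (LPL) splits the triglycerides of chylomicrons and very low density lipoproteins. It does so at the luminal face of the capillary, where GPIHBP1, a membrane-anchored protein of endothelial cells, carries it across the cell and holds it. The freed fatty acids enter the cell with the help of CD36, a scavenger receptor, and are bound inside it by FABP4, a chaperone that shuttles them to organelles and to the nuclear receptor PPARG. SCARB1 takes up cholesterol from high density lipoprotein (HDL), LIPG is a phospholipase of endothelial cells that acts on HDL, and ANGPTL4 inactivates LPL.

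The libraries were made with droplet-based 3′ sequencing, in which a barcode stands for a droplet and a unique molecular identifier (UMI) for an RNA molecule. They held 67929614 UMIs (control) and 64733724 UMIs (metastatic). A barcode was kept where it had from 1000 to 5000 genes and less than 20% of its UMIs from mitochondrial genes. These were 7134 and 6466 in number, with medians of 6272.5 and 6526.5 UMIs, and 16 of these barcodes were shared by the libraries. Levels are given as UMIs of a gene per 1000000 UMIs of all genes (CPM), summed over the cells of a class. Brackets hold 95% intervals that cover counting error only (exact Poisson for levels, exact conditional binomial for ratios, Clopper-Pearson for shares). Where a count was 0, the limit given is that of 3 counts, which is no such interval.

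Cells were assigned to a class by their markers. Aerocytes, the large capillary cells that face the alveoli, had UMIs of 2 or more of Ednrb, Fibin and Tbx2, vein cells of 2 or more of Slc6a2, Car8 and Bst1, and artery cells of 2 or more of Gja5, Bmx and Fbln5. General capillary cells had 2 or more of Aplnr, Kit, Cd300lg and Ptgs1 and met none of the other rules. This gave 3460 control and 2780 metastatic general capillary cells, 1364 and 1086 aerocytes, 63 and 59 artery cells, and 247 and 304 vein cells. Between 95.7% and 100% of the cells of a class held at least 3 of 5 endothelial markers. The share of barcodes that met no class rule was 27.4% in the control and 34.1% in the metastatic library. Over all kept barcodes the class markers Fibin and Ptgs1 were lower in the metastatic library, with log2 ratios of -0.73 and -0.58, and Aplnr and Car8 were higher, at 0.64 and 0.71, so the classes were not bounded by the same marker levels in both libraries. Some barcodes in a class also carried RNA of other cells. In the metastatic library 5 vein cells and 1 artery cell had 4 or more macrophage markers and under 2 endothelial markers, against 0 and 0 in the control. In vein cells, the summed level of 7 monocyte and macrophage markers was 38.1 CPM in control and 840.1 CPM in metastatic cells (7 of 7 higher), and that of 5 alveolar type 2 and club cell markers was 133.3 and 4137 CPM (4 of 5 higher). In aerocytes the alveolar and club cell markers were at 688.5 and 100.2 CPM. In general capillary cells the platelet markers were at 164.2 and 314.1 CPM, the erythroid markers at 1634 and 853.8 CPM, and the macrophage markers at 186.4 and 146.1 CPM. In artery cells the macrophage markers were at 34.5 and 466.7 CPM (6 of 7 higher), the platelet markers at 16.2 and 148.0 CPM, and the adipocyte markers at 0 and 16.4 CPM, from 1 gene. Below, barcodes that held RNA of another cell type are those with 2 or more markers of lymphocytes, fibroblasts, platelets, or alveolar and club cells. Those with 3 or more macrophage markers also counted. Adipocyte and erythroid markers were not used. Leaving these barcodes out removed between 17.7% and 23.7% of the cells of a class in a library.

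The genes of triglyceride hydrolysis, Gpihbp1 (ENSMUSG00000022579, GRCm38 chromosome 15, 75596628 to 75599481, plus strand) and Lpl (ENSMUSG00000015568, chromosome 8, 68880491 to 68907448, plus strand), were highest in general capillary cells in both libraries. Gpihbp1 was at 1720 CPM (1703 to 1737) in control general capillary cells, at 1192 CPM (1147 to 1238) in vein cells, at 1172 CPM (1079 to 1272) in artery cells and at 676.8 CPM (661.7 to 692.1) in aerocytes. The vein and artery levels did not differ beyond their intervals, and the other neighbours in this order did. Lpl followed another order, with 1311 CPM (1296 to 1326) in control general capillary cells, 1075 CPM (985.3 to 1170) in artery cells, 475.3 CPM (462.7 to 488.2) in aerocytes and 288.3 CPM (266.3 to 311.6) in vein cells. Vein cells thus carried much of the general capillary level of the anchor Gpihbp1 and little of that of the lipase. In the metastatic library the order of the classes was the same for Lpl, and for Gpihbp1 vein cells (1046 CPM, 1008 to 1086) stood above artery cells (896.4 CPM, 814.2 to 984.6).

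**Figure D1:**
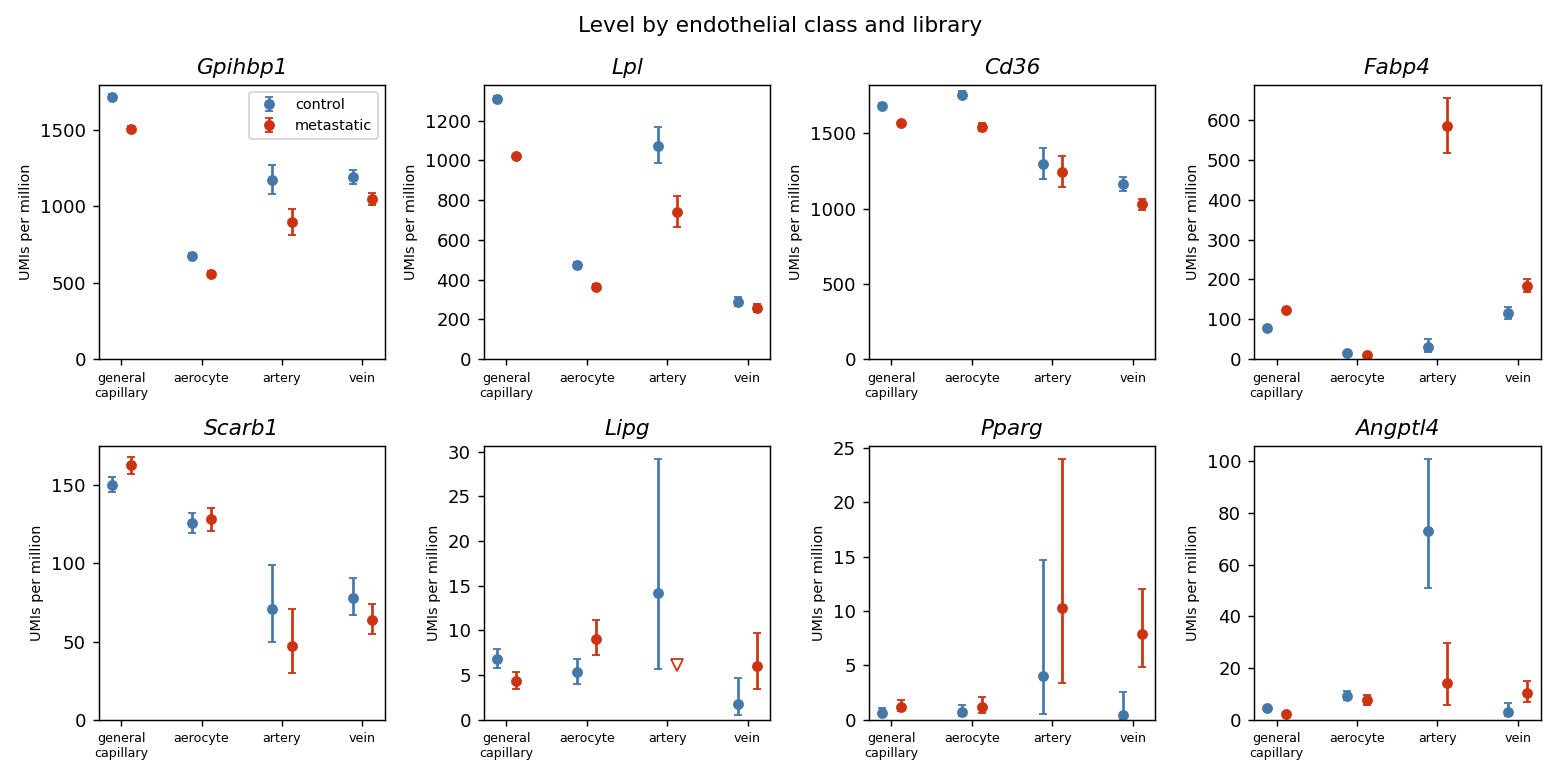
Level of each gene in CPM in the 4 endothelial classes, with control cells in blue and metastatic cells in red; bars are exact 95% Poisson intervals and each axis has its own scale. Gpihbp1, Lpl and Cd36 lie lower in the metastatic library in each class, with overlapping intervals for Cd36 in artery cells and Lpl in vein cells, and the open triangle at Lipg marks the level of 3 counts in metastatic artery cells, which held 0 UMIs.

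Of the 8 genes, 4 differed by 2-fold or more between aerocytes and general capillary cells in the same direction in both libraries, and all 4 were among the 7 with at least 100 UMIs, beside 7.04% of the 10070 genes compared. Gpihbp1 was lower in aerocytes by a log2 ratio of -1.35 (-1.38 to -1.31) in the control and -1.43 (-1.48 to -1.39) in the metastatic library, and Lpl by -1.46 (-1.51 to -1.42) and -1.48 (-1.54 to -1.43). Fabp4 was also lower, at -2.30 and -3.54, and Angptl4 was higher, at 1.03 (0.62 to 1.43) and 1.65 (1.10 to 2.21). Without barcodes that held RNA of another cell type, Angptl4 was no longer higher in aerocytes, at -0.043 and -0.30. Without barcodes of 10 or more Fabp4 UMIs, described with Fabp4 below, Fabp4 was at 0.09 (-0.37 to 0.54) and -0.33 (-0.67 to 0.01). Both of these intervals held 0. Between artery and general capillary cells 1 of the 5 genes with enough UMIs was past that fold, beside 4.80% of all genes, namely Scarb1, lower at -1.08 and -1.78. Pparg and Angptl4, with fewer UMIs, were higher by more than that. For Pparg the ratios were 2.68 (-0.49 to 4.79) and 3.09 (1.35 to 4.51), on 2 and 5 artery UMIs, and the control interval held 0. For Angptl4 they were 4.02 (3.43 to 4.58) and 2.58 (1.19 to 3.73), on 36 and 7 artery UMIs. In the control library 3 artery cells held 32 of those 36. Between vein and general capillary cells 1 of 6 was past 2-fold, beside 4.84%: Lpl, at -2.18 (-2.30 to -2.07) and -1.99 (-2.10 to -1.88). Without the vein and general capillary barcodes that held RNA of another cell type, this ratio was -2.28 in the control and -2.24 in the metastatic library.

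Aerocytes were not uniform in these genes, and the number of general capillary markers found in an aerocyte went with its Gpihbp1 and Lpl. In the control library, Gpihbp1 was at 192.8 CPM (179.3 to 206.9) in the 550 aerocytes with none of the 4 general capillary markers, at 611.8 CPM (584.6 to 640.0) in the 378 with 1, and at 1174 CPM (1142 to 1207) in the 436 with 2 or more. Lpl was at 71.5 CPM (63.4 to 80.3), 418.4 CPM (396.0 to 441.8) and 892.0 CPM (863.8 to 920.8) in the same cells. In the metastatic library Gpihbp1 was at 175.8, 512.2 and 987.4 CPM over these steps and Lpl at 58.2, 326.3 and 707.4 CPM. In aerocytes Cd36 and Scarb1 did not follow the markers, and in the control library Cd36 was at 1780, 1761 and 1737 CPM and Scarb1 at 122.0, 121.0 and 132.6 CPM. Neither gene's first and last steps differed beyond their intervals. In control vein cells all 4 genes were higher at the last step: over the 142 cells with 1 of the markers and the 95 with 2 or more, Gpihbp1 was at 1013 and 1435 CPM, Lpl at 111.3 and 510.1 CPM, Cd36 at 1121 (1061 to 1183) and 1242 CPM (1173 to 1313), and Scarb1 at 53.9 (41.4 to 69.0) and 109.3 CPM (89.7 to 132.0). The intervals of Cd36 overlapped and those of the others did not. In metastatic vein cells all 4 genes were also higher in the 112 cells with 2 or more markers than in the 170 with 1. There Lpl was at 124.4 and 329.0 CPM, and the intervals of Scarb1 overlapped (41.3 to 66.0 and 65.0 to 99.9) while those of Cd36 did not. The 22 metastatic vein cells with none of the markers held Lpl at 855.9 CPM (727.2 to 1001), above both of these steps. Of all metastatic vein cells, 5 met the macrophage rule, and 3 cells held 115 of the 689 Lpl UMIs. The part of such cells in the value of the 22 was not tested. The 10 control vein cells with none of the markers were shallower, at a median of 2825 UMIs.

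Depth and the share of doublet calls rose along the same marker steps in aerocytes, and the levels were not read at equal depth. The median UMIs per cell were 7317, 7988.5 and 8797.5 over the 3 steps in the control library, and simulated-doublet scoring marked 1.09%, 10.3% and 22.9% of these cells. With the marked barcodes left out, Gpihbp1 was at 189.3, 569.3 and 1212 CPM and Lpl at 68.6, 396.7 and 900.9 CPM in control aerocytes, steps as large as before.

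**Figure D2:**
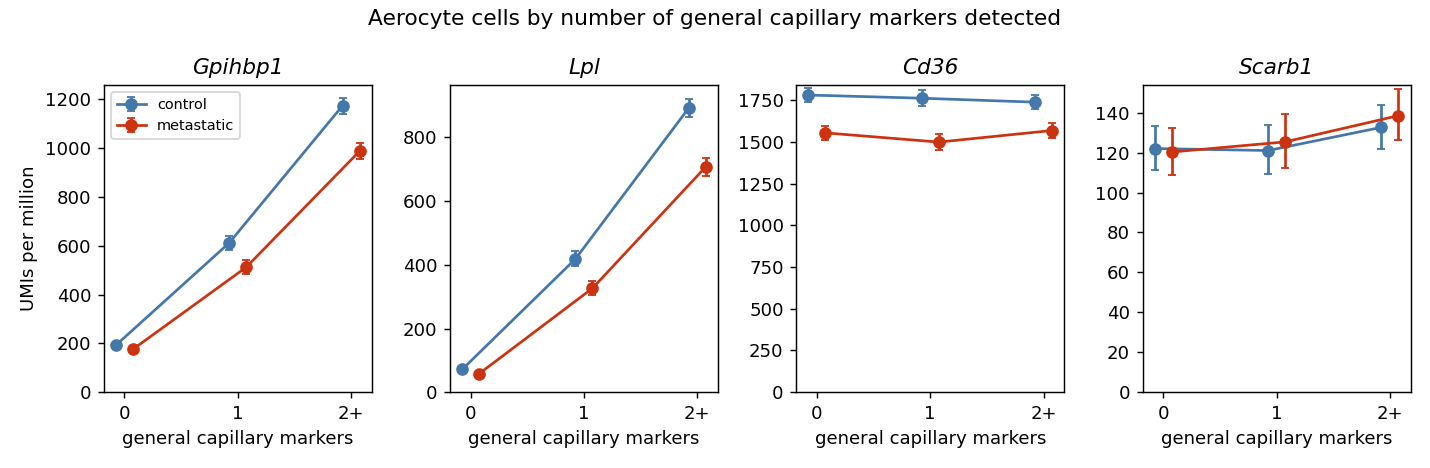
Levels of 4 genes in aerocytes split by the number of general capillary markers (Aplnr, Kit, Cd300lg, Ptgs1) with a UMI, in CPM with exact 95% Poisson intervals; control in blue, metastatic in red. Gpihbp1 and Lpl climb from 192.8 to 1174 CPM and from 71.5 to 892.0 CPM in the control library, whereas Cd36 and Scarb1 stay level.

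Whether Gpihbp1 and Lpl were found in the same cells was described after each cell had been thinned to 2000 UMIs, which left out 10 control and 12 metastatic aerocytes. Of 1354 control aerocytes, 29.6% (27.2 to 32.1) held UMIs of both genes and 40.3% (37.6 to 42.9) of neither, and across these cells the Spearman correlation of the 2 genes was 0.53. In 1074 metastatic aerocytes the shares were 23.7% and 46.3% and the correlation was 0.47. Across general capillary cells the correlation was 0.09 in the control and 0.22 in the metastatic library, in which most cells held both genes. The correlations of Cd36 with Gpihbp1 and with Lpl lay between -0.06 and 0.03 in either class and library. The cells of a library share its depth and its free RNA, so these values describe the cells and are no test. Barcodes marked as doublets were left in, and their part in the shares and correlations was not tested. The share of control vein cells with Gpihbp1 but no Lpl UMI was 46.7% (40.4 to 53.2), against 15.5% (14.3 to 16.7) of control general capillary cells.

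Between the libraries, Lpl was lower in the metastatic one in each class. In general capillary cells it was at 1311 CPM (control) and 1020 CPM (metastatic, 1006 to 1034), a log2 ratio of -0.36 (-0.39 to -0.34). Of the 10631 genes with at least 100 UMIs in these cells, 3.96% had a lower ratio. In aerocytes Lpl was at 475.3 and 364.8 CPM (-0.38, -0.44 to -0.32), in artery cells at 1075 and 738.1 CPM (-0.54, -0.74 to -0.35), and in vein cells at 288.3 and 257.5 CPM (-0.16, -0.32 to -0.01). Without barcodes that held RNA of another cell type, the ratio was -0.39 in general capillary cells, -0.46 in aerocytes, -0.87 in artery cells and -0.35 in vein cells. Without barcodes of 10 or more Fabp4 UMIs, described with Fabp4 below, the interval in vein cells held 0 (-0.14, -0.30 to 0.016). Monocyte and macrophage barcodes themselves held Lpl at 1959 and 1705 CPM. In barcodes in no class Lpl was at 1188 and 732.3 CPM (-0.70, -0.74 to -0.66), and over all kept barcodes the ratio was -0.45 (-0.47 to -0.43).

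Gpihbp1 was lower as well, at 1720 and 1511 CPM in general capillary cells (-0.19, -0.21 to -0.17), at 676.8 and 559.5 CPM in aerocytes (-0.27, -0.33 to -0.22), at 1172 and 896.4 CPM in artery cells (-0.39, -0.57 to -0.21) and at 1192 and 1046 CPM in vein cells (-0.19, -0.26 to -0.11). In general capillary cells 11.9% of genes had a lower ratio. The intervals of the 2 libraries did not overlap in any class for Gpihbp1. With barcodes that held RNA of another cell type left out, the ratio was -0.18 in general capillary cells, -0.34 in aerocytes, -0.68 in artery cells (-0.89 to -0.46) and -0.14 in vein cells. In barcodes with 11 to 50 UMIs, taken as free RNA, the same genes were higher in the metastatic library, Gpihbp1 at 420.4 and 518.8 CPM and Lpl at 207.2 and 296.5 CPM.

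Equal depth gave the same picture cell by cell. At 2000 UMIs per cell, 82.4% (81.0 to 83.6) of 3436 control and 70.1% (68.3 to 71.8) of 2766 metastatic general capillary cells held a UMI of Lpl, and the median cell held 2 and 1. For Gpihbp1 these shares were 92.3% (91.4 to 93.2) and 87.8% (86.5 to 89.0). Before thinning they were 94.9% and 89.6% for Lpl and 98.99% and 98.1% for Gpihbp1. Lymphocytes, which should lack both genes, gave a background of 1.89% in each library for Lpl and of 13.2% and 1.89% for Gpihbp1 at 2000 UMIs, in 53 cells each. Their median depth before thinning was 4770 and 4640.5 UMIs, against 6355 and 6611.5 UMIs in general capillary cells. Each number of Lpl UMIs from 2 to 9 was held by a smaller share of metastatic than of control cells, 3 UMIs for instance by 10.4% against 13.4%.

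**Figure D3:**
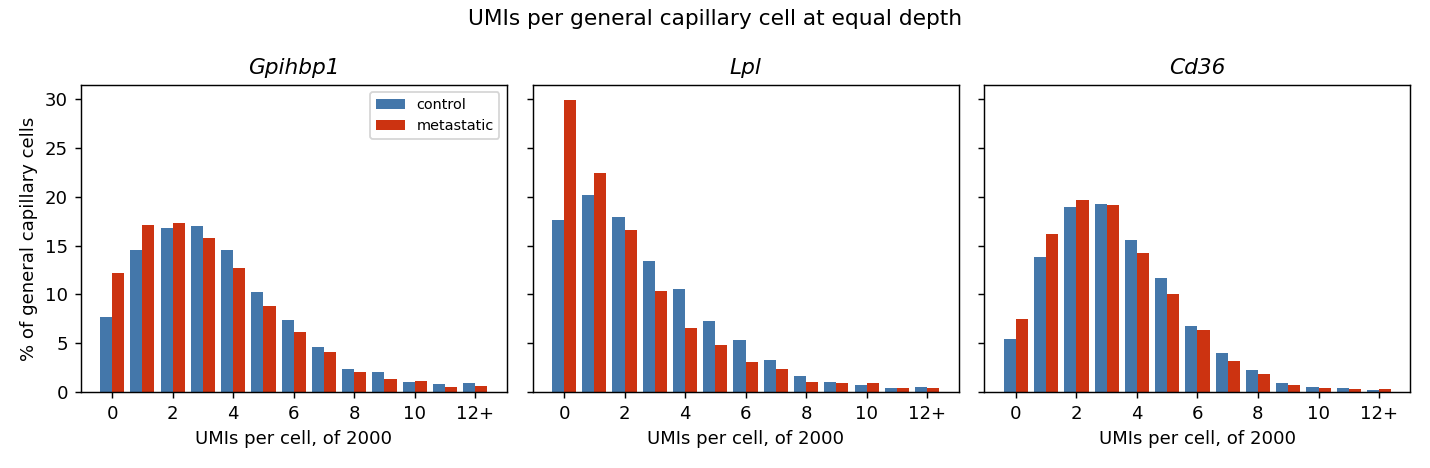
Share of general capillary cells (%) by the number of UMIs of Gpihbp1, Lpl or Cd36 they held once thinned to 2000 UMIs per cell; control in blue, metastatic in red, with cells of 12 or more UMIs in the last bar. The bar at 0 UMIs of Lpl stands at 17.6% in the control and 29.9% in the metastatic library.

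Of the genes of fatty acid uptake, Cd36 (ENSMUSG00000002944, chromosome 5, 17781690 to 17888801, minus strand) was close in the 2 capillary classes and lower in artery and vein cells. It was at 1759 CPM (1734 to 1783) in control aerocytes, 1683 CPM (1667 to 1700) in general capillary cells, 1296 CPM (1197 to 1400) in artery cells and 1164 CPM (1119 to 1210) in vein cells. Aerocytes, which had low Gpihbp1 and Lpl, thus had the general capillary level of Cd36: the log2 ratio of the classes was 0.06 (0.04 to 0.09) in the control and -0.02 (-0.05 to 0.01) in the metastatic library. Vein cells were lower than general capillary cells by -0.53 (-0.59 to -0.47) and -0.61 (-0.67 to -0.55) and artery cells by -0.38 and -0.33. Cd36 was lower in the metastatic library at 1567 CPM (1550 to 1585) in general capillary cells (-0.10, -0.12 to -0.08), 1543 CPM in aerocytes (-0.19, -0.22 to -0.16) and 1028 CPM in vein cells (-0.18, -0.26 to -0.10). In artery cells it was at 1244 CPM and the interval of the ratio held 0 (-0.06, -0.22 to 0.10). The artery interval did not hold 0 without barcodes that held RNA of another cell type (-0.28, -0.46 to -0.09), and then the ratio was -0.095 in general capillary cells, -0.19 in aerocytes and -0.14 in vein cells. In general capillary cells 22.6% of genes had a lower ratio.

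Of the 8 genes, Cd36 and Pparg had promoter sequences in the RefSeq table used here (GRCm38.p6). The promoter of Cd36, classically a target of PPARG, is shown because Cd36 was one of the genes lower in the metastatic library. It spans 250 bases before to 50 after 1 of the gene's start sites, at chr5:17835847-17836146 on the minus strand, and is read 5′ to 3′. The capitals mark the one match, on the opposite strand, to AGGTCA, the core letters of the sites that nuclear receptors such as PPARG bind, 228 bases before the start.
Cd36: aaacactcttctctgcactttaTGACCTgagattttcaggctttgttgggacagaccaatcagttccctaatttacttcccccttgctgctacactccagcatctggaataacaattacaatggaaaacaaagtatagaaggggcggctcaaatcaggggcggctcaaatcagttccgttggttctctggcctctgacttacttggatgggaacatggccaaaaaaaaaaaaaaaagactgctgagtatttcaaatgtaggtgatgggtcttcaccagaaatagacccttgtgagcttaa
On either strand, AGGTCA was present in 16.3% of the 32851 promoters of this length. The letters CCAAT, 195 bases before the start, were present in 37.4% of them, and the 2 copies of GGGCGG, 109 and 93 bases before the start, in 35.7%. TATAAA, present in 13.6% of promoters, had no match. These are matches of letters and describe the sequence only.

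Scarb1 (ENSMUSG00000037936, chromosome 5, 125277087 to 125341094, minus strand, overlapped on its strand by Gm42633) was a gene of the capillaries. It was at 150.3 CPM (145.4 to 155.3) in control general capillary cells, 125.7 CPM (119.3 to 132.4) in aerocytes, 78.0 CPM (66.8 to 90.5) in vein cells and 71.0 CPM (49.4 to 98.7) in artery cells, where the last 2 did not differ beyond their intervals. Unlike Gpihbp1, Lpl and Cd36 it was slightly higher in metastatic general capillary cells, at 162.7 CPM (157.1 to 168.4), a log2 ratio of 0.11 (0.05 to 0.18). Of all genes, 28.0% had a higher ratio there. In aerocytes (0.03), artery cells (-0.59) and vein cells (-0.29) the interval of the ratio held 0. In artery cells it did not without barcodes that held RNA of another cell type (-0.96, -1.92 to -0.05) or without barcodes of 10 or more Fabp4 UMIs (-0.88, -1.79 to -0.02). At 2000 UMIs per cell, 23.5% (22.0 to 24.9) of control and 24.8% (23.2 to 26.5) of metastatic general capillary cells held a UMI of Scarb1, shares that did not differ beyond their intervals, above the 1.89% of control lymphocytes.

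Scarb1 stood higher in general capillary cells with a UMI of Inhbb, which encodes a subunit of activins and inhibins, a comparison chosen after the values were seen. In the control library it was at 251.7 CPM (215.1 to 292.8) in the 76 cells with an Inhbb UMI and 147.3 CPM (142.4 to 152.4) in the 3384 without, and in the metastatic library at 348.5 CPM (320.2 to 378.6) in 183 cells and 146.4 CPM (140.9 to 152.0) in 2597. Lpl was at 1673 CPM (1577 to 1774) with and 1300 CPM (1286 to 1315) without an Inhbb UMI in the control library, and at 1220 CPM (1166 to 1275) and 1003 CPM (988.4 to 1017) in the metastatic library. Lpl was thus lower in the metastatic library in both sets of cells, whereas the Scarb1 intervals of the libraries overlapped in cells without an Inhbb UMI. The cells with an Inhbb UMI also had less Cd36, at 1423 against 1691 CPM (control) and 1426 against 1580 CPM (metastatic), and more Fabp4, at 1242 against 44.4 CPM and 417.0 against 98.4 CPM, which a few cells held. Cells with an Inhbb UMI were the deeper ones, at medians of 7620.5 and 7688 UMIs against 6334 and 6576 UMIs.

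Fabp4 (ENSMUSG00000062515, chromosome 3, 10204088 to 10208576, minus strand) was unlike the genes above in that a few cells held most of it. Its level in general capillary cells was 78.1 CPM (control, 74.5 to 81.7) and 124.1 CPM (metastatic, 119.3 to 129.1), a log2 ratio of 0.67 (0.58 to 0.76). Yet 3 of 3460 control cells held 1115 of its 1855 UMIs (60.1%), and 3 of 2780 metastatic cells held 1280 of 2475 (51.7%). For Cd36, 50% of the UMIs were spread over 993 control and 758 metastatic cells, and for Lpl over 770 and 521. In artery cells Fabp4 had 15 and 284 UMIs, and 3 metastatic cells held 278 of the 284. Without the 3 highest cells of each library the levels were 31.1 and 59.9 CPM in general capillary cells, 10.1 and 12.3 CPM in artery cells, and 56.2 and 125.6 CPM in vein cells.

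**Figure D4:**
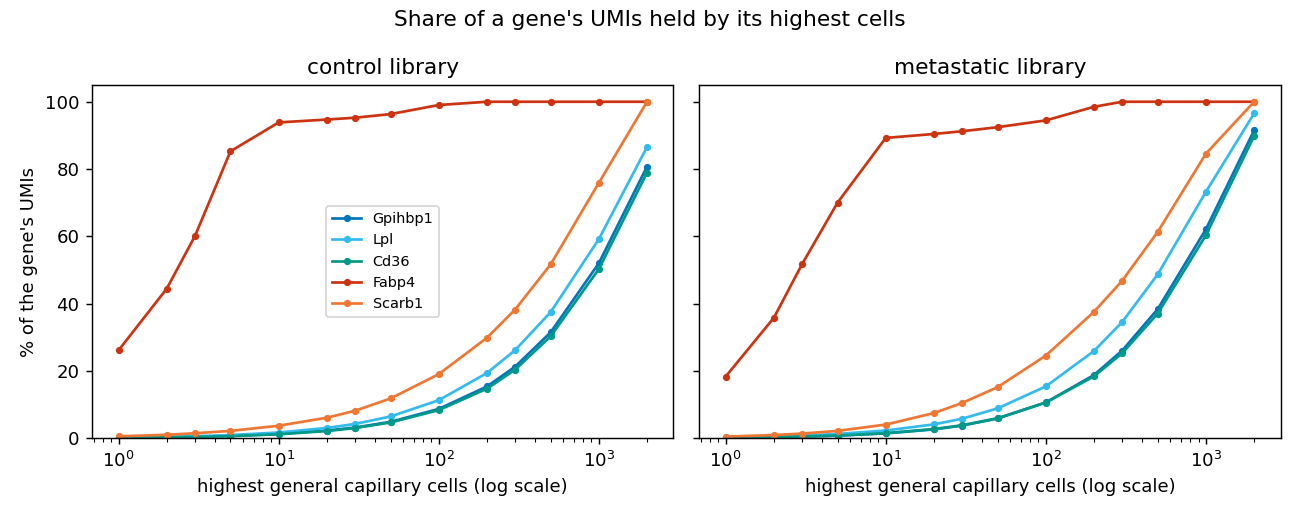
Share of a gene's UMIs (%) held by its highest general capillary cells, against the number of those cells on a log axis, in the control (left) and the metastatic library (right). The 3 highest cells held 60.1% and 51.7% of the Fabp4 UMIs, whereas the curves of Gpihbp1, Lpl, Cd36 and Scarb1 rise over many more cells.

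The direction of the Fabp4 difference depended on these cells. In vein cells it was at 115.1 and 184.6 CPM (0.68, 0.46 to 0.91), in artery cells at 30.4 and 583.9 CPM (4.26, 3.52 to 5.12) and in aerocytes at 15.8 and 10.7 CPM (-0.57, -0.94 to -0.21). When barcodes with 10 or more Fabp4 UMIs were left out, a limit chosen after the values were seen, the ratios were 1.36 in general capillary cells, 0.29 in vein cells, -1.24 in artery cells and 0.94 in aerocytes. With the barcodes that held RNA of another cell type left out instead, they were 0.98 in general capillary cells, 1.27 in vein cells, 4.47 in artery cells and -0.78 in aerocytes. Adipocyte markers were not part of that filter, and the part of adipocyte RNA in these ratios was not tested. Under the stricter class rule (3 of 3 or at least 3 of 4 markers) the ratio in general capillary cells was -1.32, and over all alternatives it ran from -1.32 to 3.71. In the free RNA Fabp4 was at 329.0 CPM (control) and 251.2 CPM (metastatic), above its levels in both capillary classes. An estimated 20.7% and 16.9% of the UMIs of control and metastatic general capillary cells were free RNA. The share of general capillary cells with any Fabp4 UMI at 2000 UMIs per cell does not weigh high cells, and was 1.31% (0.957 to 1.75) in the control and 3.07% (2.46 to 3.79) in the metastatic library. Before thinning it was 3.41% and 8.53%. Lymphocytes gave 0 of 53 in each library, which by the limit of 3 counts allows a share of up to 5.66%, so these shares cannot be told from background.

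The barcodes with 10 or more Fabp4 UMIs, once those that met the lymphocyte, macrophage or fibroblast rules were set aside, numbered 34 in the control and 39 in the metastatic library and held 86.8% and 85.8% of all Fabp4 UMIs. Of these, 30 and 35 had at least 3 endothelial markers, and they lay in general capillary cells (7 and 10), vein cells (6 and 13), aerocytes (3 and 0), artery cells (0 and 3) and outside the classes. They were chosen by their Fabp4, and what follows describes them with no test. They held Timp4, a protease inhibitor, at 336.6 and 338.1 CPM against 0.378 and 0.518 CPM in the other barcodes, and Rbp7, a retinol-binding protein, at 660.2 and 613.8 CPM against 2.64 and 1.71 CPM. Tcf15, a transcription factor that with Meox2 is known to drive fatty acid transport in heart endothelium, was at 103.6 and 177.3 CPM against 1.87 and 1.89 CPM. Pparg was at 48.5 and 72.2 CPM against 0.483 and 0.789 CPM, and Angptl4 at 64.7 and 68.9 CPM against 6.38 and 4.85 CPM. Gpihbp1 (1767 and 1484 CPM against 1366 and 1169), Lpl (1233 and 892.8 against 1028 and 747.2) and Cd36 (1825 and 2022 against 1629 and 1466) differed less. These sums rest on few cells: Timp4 had a UMI in 11 of the 34 control and 17 of the 39 metastatic barcodes, Rbp7 in 11 and 18, Tcf15 in 13 and 13, Pparg in 8 and 12, and Angptl4 in 7 and 9. Lpl had a UMI in 50% and 66.7% of them, against 81.5% and 75.0% of the other barcodes. For Gpihbp1 these shares were 82.4% and 84.6% against 92.0% and 90.1%, and for Cd36 100% in each library against 97.8% and 96.5%. The 34 and 39 barcodes were also deeper, at medians of 8680.5 and 7338 UMIs against 6273 and 6521 UMIs. RNA of other cells was in some of them, with the macrophage gene Chil3 at 1838 and 292.1 CPM in 6 and 1 barcodes and Mrc1 at 317.1 and 91.9 CPM in 4 and 2, against 14.7 and 13.7 CPM and 2.90 and 3.99 CPM in the other barcodes. There were at least 3 macrophage markers in 4 and 1, and at least 2 adipocyte markers in 0 and 2 barcodes. The adipocyte gene Adipoq was at 0 and 49.2 CPM, in 0 and 1 barcodes. Cfd, another gene of the adipocyte list, was at 35.6 and 213.4 CPM in 2 and 3 barcodes, against 0.063 and 0.045 CPM in the other barcodes. The part of these in the levels above was not tested.

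Pparg (ENSMUSG00000000440, chromosome 6, 115360951 to 115490399, plus strand, overlapped on the other strand by Gm44079) was at the limit of detection in the endothelial classes. General capillary cells held 15 UMIs in the control and 24 in the metastatic library (0.631 and 1.20 CPM), aerocytes 8 and 11, artery cells 2 and 5, and vein cells 1 and 21. The interval of the ratio held 0 in general capillary cells (0.93, -0.06 to 1.97), aerocytes and artery cells. In vein cells it did not (4.11, 1.48 to 9.48), but without barcodes that held RNA of another cell type the metastatic vein cells had 0 UMIs of Pparg. Monocyte and macrophage barcodes held it at 65.6 and 131.6 CPM.

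Angptl4 (ENSMUSG00000002289, chromosome 17, 33773750 to 33781830, minus strand) was low in the capillaries as well. It was at 4.50 CPM (3.69 to 5.44) in control and 2.41 CPM (1.77 to 3.19) in metastatic general capillary cells, a log2 ratio of -0.90 (-1.43 to -0.40) on 107 and 48 UMIs. In aerocytes it was at 9.18 and 7.57 CPM and the interval held 0 (-0.28, -0.74 to 0.17). Artery cells had 36 and 7 UMIs (-2.34, -3.76 to -1.15) and vein cells 7 and 28 (1.72, 0.49 to 3.16). In artery cells 3 control cells held 32 of the 36 UMIs. Without barcodes that held RNA of another cell type the UMIs were 4 and 4 in artery cells, 7 and 7 in vein cells, 47 and 27 in general capillary cells and 23 and 11 in aerocytes. The interval in general capillary cells then held 0 (-0.51, -1.25 to 0.20). Fibroblast barcodes, 7 and 12 in number, held Angptl4 at 794.1 and 649.1 CPM, and the macrophage barcodes at 63.6 and 62.0 CPM. Their part in the endothelial values was not tested beyond this.

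Lipg (ENSMUSG00000053846, chromosome 18, 74939322 to 74961263, minus strand) went opposite ways in the capillary classes. It was at 6.82 CPM (5.81 to 7.95) in control and 4.36 CPM (3.49 to 5.38) in metastatic general capillary cells (-0.64, -1.04 to -0.26), and at 5.30 CPM (4.04 to 6.82) and 9.06 CPM (7.23 to 11.2) in aerocytes (0.77, 0.28 to 1.28). Without barcodes that held RNA of another cell type the ratios were -0.73 (-1.27 to -0.19) and 0.78 (0.0018 to 1.59), on levels of 5.01 and 3.03 CPM and of 2.73 and 4.70 CPM. In aerocytes 3 control cells held 18 of the 60 UMIs and 3 metastatic cells 32 of the 85. Fibroblast barcodes held Lipg at 99.3 and 110.0 CPM, on 5 and 10 UMIs, and their part in the endothelial values was not tested beyond this. Vein cells held 4 and 16 UMIs, of which 15 of the 16 lay in 3 cells. Artery cells held 7 and 0 UMIs, where 0 allows up to 6.17 CPM by the limit of 3 counts. At 2000 UMIs per cell its share of general capillary cells was 0.815% (0.542 to 1.18) in the control and 0.940% (0.615 to 1.37) in the metastatic library, with overlapping intervals, and at 4000 UMIs the order was the other way, at 2.05% and 1.27%.

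Counted over the 8 genes, 5 differed between the libraries by a log2 ratio of 0.32 or more, in either direction, in general capillary cells, beside 13.7% of the 10631 genes with at least 100 UMIs. Those with at least 100 UMIs were Lpl, Lipg and Angptl4 (lower) and Fabp4 (higher), 4 of the 7 with that many, and the 7 had a median log2 ratio of -0.19 beside 0.02 over all genes. In aerocytes 4 genes were past that ratio, beside 14.6% of all genes, and 3 of 7 with at least 100 UMIs (Lpl and Fabp4 lower, Lipg higher). In artery cells 6 were, beside 30.1%, and 3 of 4 with at least 100 UMIs (Gpihbp1 and Lpl lower, Fabp4 higher). In vein cells 4 were, beside 22.5%, and 1 of 5 with at least 100 UMIs (Fabp4, higher). Gpihbp1 and Cd36 were under that ratio in both capillary classes, though their lower levels were outside counting error. In general capillary cells 11.9% and 22.6% of genes had a lower ratio than these 2, and in aerocytes 7.04% and 12.4%. Without barcodes that held RNA of another cell type, Gpihbp1 was at -0.34 in aerocytes, past that ratio.

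**Figure D5:**
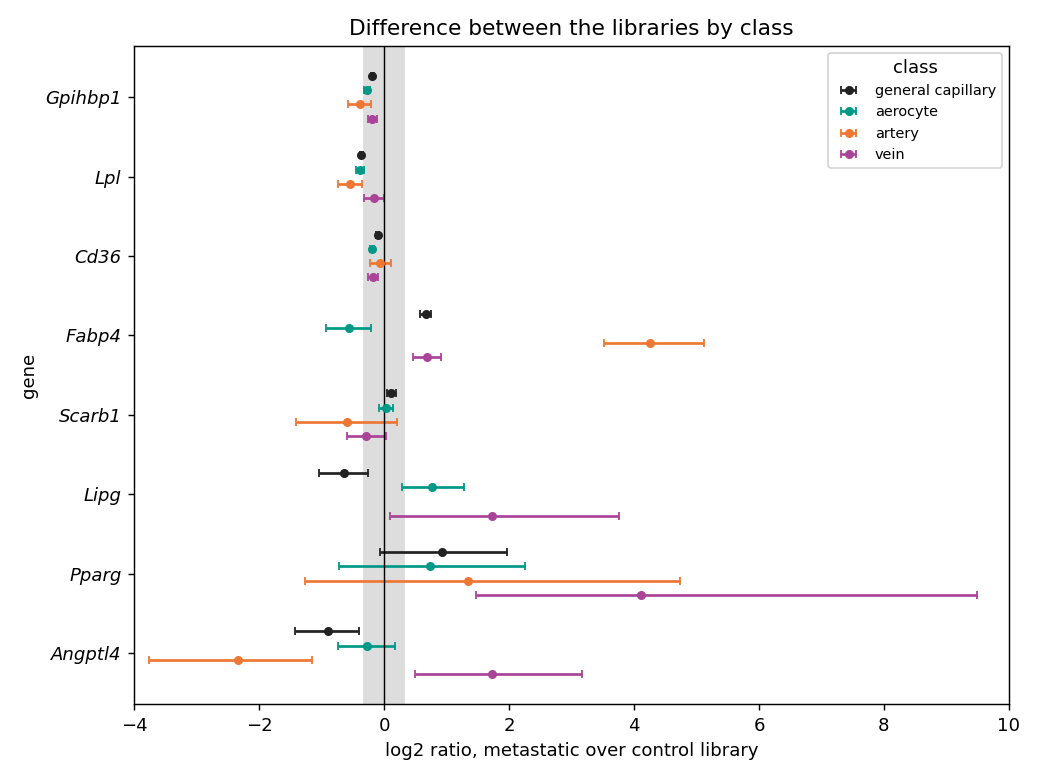
Log2 ratio of the metastatic to the control library for each gene and class, with exact 95% intervals that cover counting error only; the grey band covers log2 ratios under 0.32 in size and Lipg has no ratio in artery cells, with 0 metastatic UMIs. Gpihbp1 and Lpl lie left of 0 in all 4 classes, from -0.16 to -0.54, while Fabp4, Lipg and Angptl4 lie on both sides.

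Other genes of the pathway were described by lists. Of 18 genes of fatty acid transport and activation, 14 had at least 100 UMIs in general capillary cells, 2 were higher by a log2 ratio of 0.32 or more and 0 lower, and their median log2 ratio was 0.13. For comparison, 8.81% of all genes were higher and 4.91% lower by that much. The 2 were Tcf15 at 0.97 (0.46 to 1.49) on 53 and 87 UMIs, a difference that went with the few barcodes of 10 or more Fabp4 UMIs, and Nrp1, a receptor of VEGF-B and VEGF-A, at 0.55 (0.50 to 0.59) on 318.8 and 466.0 CPM. Without those barcodes Tcf15 had 41 and 44 UMIs and its interval held 0 (0.36, -0.29 to 1.01). Acsl4, which activates long-chain fatty acids, was at -0.28 (-0.43 to -0.14), and Cavin2, a coat protein of caveolae, at -0.28 (-0.30 to -0.27) on 2734 and 2247 CPM.

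Of 13 genes of lipase maturation, lipase cofactors and intracellular lipolysis, 8 had enough UMIs, with 1 lower by that much, 0 higher, and a median of -0.08. The 1 was Pnpla2, the triglyceride lipase of lipid droplets, at -0.36 (-0.41 to -0.30) on 272.9 and 212.9 CPM. Hilpda, a small protein that inhibits PNPLA2, was at -0.31 (-0.34 to -0.27), Lipa, the lysosomal lipase, at -0.19 (-0.30 to -0.07) and Mgll, the monoglyceride lipase, at 0.13 (0.02 to 0.25). The interval of Lipa held 0 without barcodes that held RNA of another cell type (-0.10, -0.23 to 0.025), and that of Mgll without barcodes of 10 or more Fabp4 UMIs (0.04, -0.08 to 0.16).

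Of 10 lipoprotein receptor genes 5 had enough UMIs, none past the limit, with a median of 0.01. Lrp10, a relative of the LDL receptor, was at 0.28 (0.18 to 0.39) and Acvrl1, a receptor of BMP9 that also binds LDL, at 0.15 (0.12 to 0.18). Of 10 PPAR, RXR and LXR receptor genes and their coregulators 7 had enough, none past the limit, with a median of -0.02, and Rxra, the partner of the PPARs, was at 0.22 (0.07 to 0.37). Of 12 PPAR targets and fat storage genes 9 had enough, with 2 lower, 0 higher and a median of -0.08. These were Ucp2, a mitochondrial carrier, at -0.48 (-0.51 to -0.46) on 1508 and 1080 CPM, and Rbp7 at -0.95 (-1.45 to -0.47) on 120 and 52 UMIs, of which 17 and 8 were left (-0.83, -2.25 to 0.46) once barcodes of 10 or more Fabp4 UMIs were set aside. Cpt1a, which brings fatty acids into mitochondria, was at -0.12 (-0.20 to -0.04), and Plin2, a lipid droplet coat protein, at 0.16 (0.04 to 0.28).

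Of 10 genes of cholesterol synthesis and efflux 9 had enough UMIs in general capillary cells, with 1 higher, 1 lower and a median of 0.17. Abcg1, which exports cholesterol to HDL, was at 0.37 (0.19 to 0.56), Hmgcs1, a synthase of the pathway, at 0.24 (0.07 to 0.40), and Insig1, which holds back the sterol response, at -0.37 (-0.66 to -0.08). In aerocytes 4 of 9 of these genes were higher past the limit and 0 lower, beside 9.50% and 5.15% of all genes, with a median of 0.31 beside 0.03 over all genes. When barcodes that held RNA of another cell type were left out, 5 of 9 were higher and 0 lower, beside 8.74% and 5.33%. In vein cells 3 of 5 were higher, beside 12.0% of all genes, but without those barcodes 2 of the genes had enough UMIs and 0 of them were past the limit.

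The genes most like each member over the 8 sums of class and library (Pearson correlation of log2(CPM + 1), among 8927 genes with at least 500 UMIs) were Parn (0.98) and Ccnl1 (0.97) for Gpihbp1, R3hdm2 (0.98), Plekha2 (0.97) and Ccser2 (0.96) for Lpl, and Dgkh, Rps6ka1 and Zfp641 (0.99 each) for Cd36. For Scarb1 they were Anp32e (0.98), Srsf2 (0.98) and Hnrnpd (0.97), and for Fabp4, whose sums rest on few cells, Pfdn2 (0.99), Naa10 (0.98) and Hjurp (0.98). For Lipg they were Prmt5 (0.99), Zfp748 (0.98) and Zfp266 (0.98) and for Angptl4 Pkd1 (0.97), Ublcp1 (0.96) and Hyou1 (0.96), on 421 and 408 UMIs in all. With 8 points that share 2 libraries, correlations of this size describe the ranking and are no finding about these genes.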

How the data were processed

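Mouse lung cells sorted for PECAM1 were sequenced with the 10x Genomics 3′ kit, 1 library for each group. The deposited values are raw counts of UMIs per gene and barcode that the authors made with Cell Ranger on mm10, with no cell calling or normalization (the matrix headers name version 3.1.0). Coordinates come from GENCODE M21 (GRCm38, the assembly of mm10) and promoters from RefSeq.

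Counts were summed by class with Python 3.11.15, numpy 2.4.6, scipy 1.17.1 and pandas 2.3.3, and barcodes that met 2 of the aerocyte, artery and vein rules were left out. Lymphocytes (2 or more markers), fibroblasts (3 or more) and monocytes or macrophages (4 or more) had under 2 endothelial markers. Doublets (0.8% per 1000 barcodes) were scored against simulated doublets with scikit-learn 1.9.0 and left out in an alternative only. Shares of cells with a UMI were read after thinning to 2000 UMIs. Ratios, intervals and thinning were tested on simulated data. Genes counted across all features needed at least 100 UMIs. Besides the 8 genes, the text names from each pathway list up to 2 genes with the highest and 2 with the lowest ratio in general capillary cells among those whose interval left out 0, and the 3 genes most like each member with at least 200 UMIs, of which 1 is not reported here. The pathway lists were also counted without barcodes holding RNA of another cell type, and without those of 10 or more Fabp4 UMIs, both chosen after seeing the data. The members and lists were chosen with earlier results of these data known. With pooled mice and 1 library per group, differences between mice or between library preparations cannot be told apart from the injection.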

Additional observations from a re-analysis of the deposited data

Results flagged for a closer look

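Fabp4 had log2 ratios (metastatic over control) of opposite sign in the endothelial classes: 0.67 in general capillary cells, 4.26 in artery cells and 0.68 in vein cells, against -0.57 in aerocytes. The difference between the classes was not tested. In barcodes that met no class rule the ratio was 0.13 (0.04 to 0.21). With barcodes of 10 or more Fabp4 UMIs left out the ratio was 0.94 in aerocytes and -1.24 in artery cells.

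Lipg was at -0.64 in general capillary cells and at 0.77 in aerocytes and 1.72 in vein cells, a difference between classes that was not tested. In barcodes in no class it was at 0.86 (0.39 to 1.35). Without barcodes that held RNA of another cell type the ratio in vein cells was -1.26, on 2 and 1 UMIs.

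Angptl4 was at -0.90 in general capillary cells and -2.34 in artery cells, and at 1.72 in vein cells, which was likewise not tested between classes. Without barcodes that held RNA of another cell type it was at 0.09 in artery cells and -0.26 in vein cells.

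Outside the classes, Scarb1 was at 95.5 CPM (control) and 123.1 CPM (metastatic) in barcodes in no class, a log2 ratio of 0.37 (0.25 to 0.49). In monocyte and macrophage barcodes Pparg was at 1.00 (0.40 to 1.64).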

How the results depend on the processing

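Lpl and Gpihbp1 were lower in the metastatic library in each of the 4 classes under every alternative run, Lpl by log2 ratios from -0.44 to -0.31 in general capillary cells. Cd36 was too, except in artery cells (0.02 with each cell weighing the same). The causes of the following changes were not tested. Between the libraries, 2 genes passed 1.5-fold in aerocytes, and 3 passed a log2 ratio of 0.32 in general capillary cells with free RNA subtracted, where genes left at 0 were not counted. With free RNA subtracted, 2, 1 and 2 genes passed 2-fold in aerocytes, artery and vein cells against general capillary cells. The vein count was 2 without UMIs of other class markers, without barcodes holding RNA of another cell type, with each cell weighing the same, and without barcodes of 10 or more Fabp4 UMIs (chosen after seeing the data), and 3 under the stricter class rule. With classes assigned at 4000 UMIs the artery count was 5 and the vein count 3.

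Direction reversed between the libraries as follows. Without UMIs of other class markers, Fabp4 was at -0.73 in artery and -0.47 in vein cells. Under the stricter class rule Fabp4 was at -1.32 in general capillary cells and 1.18 in aerocytes, Angptl4 at 3.35 in artery cells and Lipg at -1.16 in vein cells. At 4000 UMIs, Fabp4 was at -1.88 in artery and Lipg at -0.63 in vein cells. Without barcodes holding RNA of another type, Angptl4 was at 0.088 in artery and -0.26 in vein cells and Lipg at -1.26 in vein cells. Without barcodes of 10 or more Fabp4 UMIs, Fabp4 was at 0.94 in aerocytes and -1.24 in artery cells.

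Against general capillary cells, Fabp4 in artery cells was at 0.012 (control, minimum of 300 genes), and without UMIs of other class markers at 2.41 in the control and -2.02 in the metastatic library, with 1.59 in control aerocytes and -0.16 in metastatic vein cells. Under the stricter rule Angptl4 was at -0.73 in control aerocytes, and Lipg at -0.49 in metastatic aerocytes and 0.13 in control vein cells. At 4000 UMIs Angptl4 was at -0.30 in control aerocytes and Fabp4 at -4.30 in metastatic artery cells. Without barcodes holding RNA of another type Angptl4 was at -0.043 and -0.30 in control and metastatic aerocytes. With each cell weighing the same Fabp4 was at -0.024 in metastatic vein cells. Without barcodes of 10 or more Fabp4 UMIs it was at 0.092 in control aerocytes, and at 2.54 and -0.059 in control and metastatic artery cells.

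No paired analysis was possible because each group holds 1 library. Artery cells, Pparg, and Lipg and Angptl4 in vein cells rest on few UMIs, and a difference there was often within counting error.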
